A study of Mus musculus with 6 samples.

Results

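The nuclear-encoded subunits of the respiratory chain and ATP synthase were followed as 88 genes among the 55335 in the count table. A gene was taken as a member when its mouse symbol begins with Nduf (complex I), is Sdha, Sdhb, Sdhc or Sdhd (complex II), begins with Uqcr or is Cyc1 (complex III), begins with Cox4 to Cox8 (complex IV) or begins with Atp5 (complex V), and its counts summed to 60 or more over the 6 libraries. Complex I gave 46 members, of which 38 are named as subunits and 8 as assembly factors (Ndufaf). Complex II gave 4 members, complex III 9, complex IV 12 and complex V 17. Of 108 symbols that begin this way, 9 were left out because the symbol is marked -ps and 11 had fewer than 60 counts, 4 of them with none. The members nearest to the limit from above were Ndufaf6 with 192 counts and Atp5s with 204, and the nearest from below were Cox6a2 with 18 and Cox7a1 with 14. The rule reads symbols only. It keeps Ndufb4c (491 counts), which the annotation calls a processed pseudogene. It leaves out Ndufb1-ps (2824 counts), which the annotation calls a long non-coding RNA of a bidirectional promoter and not a pseudogene. It also counts Ndufa4, a subunit found with complex IV, under complex I.

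The libraries were made from CD11b+ cells sorted from the spleens of wild-type mice. In 3 libraries the mice are labelled MI, in a study of myocardial ischaemic injury, and in 3 they are labelled MI+RDN, where renal denervation (interruption of the nerves of the kidney) was added. Both groups carry MI, so neither is an uninjured control, and no group with denervation alone was analysed here. The age, sex and substrain of the mice, the time after injury and any pooling of mice are not stated in the labels.

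Mitochondrial respiration passes electrons from NADH (complex I) and succinate (complex II) through ubiquinone to complex III, then by cytochrome c to complex IV, which reduces oxygen. Complexes I, III and IV pump protons, and complex V, the ATP synthase, lets them flow back to make ATP. A few core subunits of complexes I, III, IV and V are made inside the mitochondrion from its own genome, while the members described here are encoded in the nucleus and imported. Among CD11b+ cells, neutrophils are known for few mitochondria and a reliance on glycolysis, while monocytes and macrophages hold more. The promoters of many nuclear respiratory genes are known to hold sites for NRF1, for ETS factors such as GABP (once called NRF2) and for YY1.

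The promoter windows of the members are shown first because such sites are a feature that the choice of members did not use. RefSeq windows on GRCm38.p6, from 250 bases before to 50 bases after each gene's start, were found for 71 of the 88 members. They were searched on both strands for the letters of 3 motifs: CGCATGCG, the core of the NRF1 site, CCGGAAG for ETS factors and AAGATGGC for YY1. The NRF1 letters were in the windows of 11 members, and in 9 of these they began before the start. 7 of the 9 are given here, without Atp5l, whose match lies at the edge of the window, and Uqcr11, where it runs across the start. They are written on the strand of the gene with 11 bases on either side and the motif in capitals. They lie at chr2:36049329-36049358 (minus strand) for Ndufa8, chr17:56717692-56717721 (plus) for Ndufa11, chr4:24897960-24897989 (plus) for Ndufaf4, chr5:115349101-115349130 (minus) for Cox6a1, chr15:102671070-102671099 (minus) for Atp5g2, chr16:84835105-84835134 (minus) for Atp5j and chr5:108434430-108434459 (minus) for Atp5k.
Ndufa8: gtcgctggagaCGCATGCGcagatggtacc
Ndufa11: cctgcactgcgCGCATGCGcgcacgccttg
Ndufaf4: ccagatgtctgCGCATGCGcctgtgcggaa
Cox6a1: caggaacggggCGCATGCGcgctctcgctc
Atp5g2: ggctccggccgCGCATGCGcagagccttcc
Atp5j: aggccagaataCGCATGCGtacagtgcagt
Atp5k: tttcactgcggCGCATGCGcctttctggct
The motif begins 9 bases before the start in Ndufa8, 59 in Ndufa11, 112 in Ndufaf4, 161 in Cox6a1, 41 in Atp5g2, 147 in Atp5j and 49 in Atp5k. In Ndufaf5 and Uqcrc1 the letters began 18 and 32 bases after the start.

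The 250 bases before the start are printed for 3 members of different complexes that come up again below, with matches in capitals. Cox6a1 (complex IV) at chr5:115348959-115349208 (minus strand) holds the NRF1 letters and, nearer to the start, an ETS match on the opposite strand. Atp5j (complex V), in the window at chr16:84834977-84835226 (minus), holds the NRF1 letters, a YY1 match and an ETS match in that order. A second window of Atp5j in the RefSeq table, at chr16:84835626-84835875, held 0 matches before the start and is not printed. Ndufb7 (complex I) at chr8:83566508-83566757 (plus) holds 1 ETS match, 20 bases before the start.
Cox6a1: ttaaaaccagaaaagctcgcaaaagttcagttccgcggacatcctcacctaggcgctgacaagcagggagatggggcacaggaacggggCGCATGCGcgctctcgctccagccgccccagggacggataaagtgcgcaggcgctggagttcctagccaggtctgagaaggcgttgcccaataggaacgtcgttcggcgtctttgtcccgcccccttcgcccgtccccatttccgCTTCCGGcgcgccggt
Atp5j: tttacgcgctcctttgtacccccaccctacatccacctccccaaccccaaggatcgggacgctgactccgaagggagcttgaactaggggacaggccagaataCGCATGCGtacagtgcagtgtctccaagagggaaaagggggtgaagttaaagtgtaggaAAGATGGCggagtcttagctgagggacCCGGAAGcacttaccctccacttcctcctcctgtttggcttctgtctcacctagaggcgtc
Ndufb7: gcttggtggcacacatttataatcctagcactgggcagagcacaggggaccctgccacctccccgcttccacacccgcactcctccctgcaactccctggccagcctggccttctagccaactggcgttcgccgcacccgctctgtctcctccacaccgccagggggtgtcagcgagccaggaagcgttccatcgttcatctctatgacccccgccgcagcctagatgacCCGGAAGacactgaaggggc

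Over the 71 members with a window, 15.5% held the NRF1 letters, against 2.07% of all 27025 genes in the RefSeq table. The members had to pass a count limit, while the genes of the RefSeq table were taken whether or not they were expressed in these cells. The part of this difference in the shares was not tested. With any base allowed at the fourth position (CGCNTGCG, which includes the strict form), the shares were 39.4% and 9.22%. ETS letters were in 25.4% of members and 9.93% of all genes, and YY1 letters in 14.1% and 3.19%. At least 1 of the 3 strict motifs was in 32 members, or 45.1%, against 14.1% of all genes. The CCAAT box of NF-Y (43.7% of members, 41.1% of all genes) and the SP1 letters GGGCGG (45.1% and 38.2%) were at more similar shares, and the TATAAA letters bound by TBP were in 7.04% of members and 15.7% of all genes. Of the 10 YY1 matches, 9 lay between 11 and 39 bases after the start, and the motif itself holds the letters ATG of a start codon. Member windows were richer in G and C, with a median of 58.5% against 52.7% over all windows, and the part of base composition in these shares was not tested. A match describes the letters of a window and does not show that a factor is bound there.

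**Figure D1:**
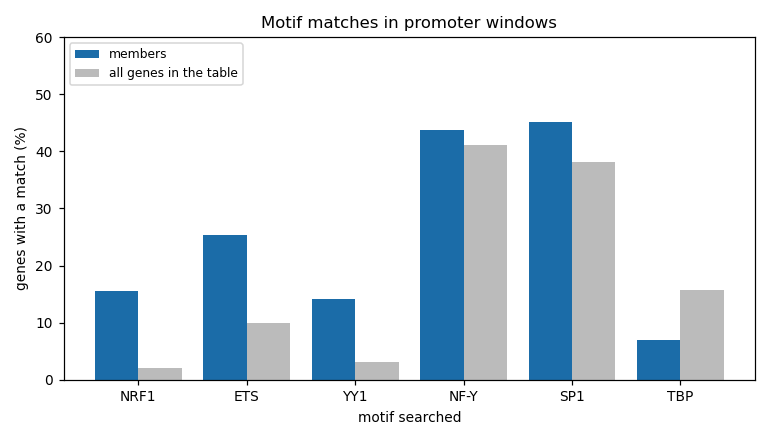
Share of genes (vertical axis, percent) whose promoter window holds each motif (horizontal axis), for the 71 members with a window (blue bars) and for all 27025 genes of the RefSeq table (grey bars). The grey bars were not limited to expressed genes. NRF1, ETS and YY1 letters are in 15.5%, 25.4% and 14.1% of members against 2.07%, 9.93% and 3.19% of all genes.

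The libraries held 21663440 to 28013900 counts, and the members made up 0.359% to 0.435% of them. Itgam, which encodes the sorted CD11b, was at 1133 ± 150 CPM (counts per 1000000; SD, n = 3) in MI and 1598 ± 95.2 CPM in MI+RDN, with an adjusted p of 0.109 by edgeR. Neutrophil markers had positive fold changes at 12 of 12 genes, with 2 called, and summed to 15704 to 24631 CPM in MI against 28441 to 52034 CPM in MI+RDN. Granule genes of neutrophil precursors summed to 389.6 CPM in MI+RDN replicate 2 and to between 35.9 and 75.9 CPM in the other 5 libraries. All 8 dendritic cell markers and all 9 B cell markers had negative fold changes, with 3 and 0 called, and B cell markers summed to 476.4 to 730.7 CPM in MI against 244.2 to 391.7 CPM in MI+RDN. Monocyte and macrophage markers were negative at 8 of 10 genes with 1 called higher, T and NK cell markers at 8 of 9 with 1 called lower, and erythroid markers at 5 of 7 tested with 0 called. Over all genes tested by edgeR, 1.01% were called in either direction and 51% had a positive fold change. The part of this shift in cell make-up in the values of the members was not tested. In sorted bulk RNA, fewer cells of a type and less RNA per cell cannot be told apart.

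Levels of the members were compared per kilobase of transcript, as RPKM (CPM divided by the transcript length in kilobases) averaged over the 6 libraries. Cox4i1, the ubiquitous form of a regulatory subunit of cytochrome c oxidase, stood highest at 207 RPKM, followed by Atp5b, the catalytic beta subunit of ATP synthase, at 181 RPKM. The highest member of complex III was Uqcrh, the hinge protein that docks cytochrome c1, at 140 RPKM, and the lowest was Cyc1, cytochrome c1 itself, at 23.6 RPKM. The highest complex I member was Ndufb7, an accessory subunit of the membrane arm, at 70.7 RPKM. Complex II ran from Sdha, the flavin-carrying subunit that oxidises succinate, at 55.0 RPKM down to Sdhc, a membrane anchor, at 12.1 RPKM. The low end of complex IV was Cox6b2, a form known from testis, at 4.34 RPKM, and that of complex V was Atp5s, coupling factor B, at 0.888 RPKM. Complex I assembly factors lay below most subunits, from Ndufaf7, a methyltransferase of the mitochondrial matrix, at 15.9 RPKM to Ndufaf6 at 1.17 RPKM. The lowest complex I subunit was Ndufb2 at 3.77 RPKM. Such ranks rest on the annotated lengths, 2413 bases for Ndufb2. Per library size alone, Ndufb2 averaged 9.39 CPM in MI, above Ndufa5 at 5.40 CPM and Ndufc1 at 4.26 CPM.

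**Figure D2:**
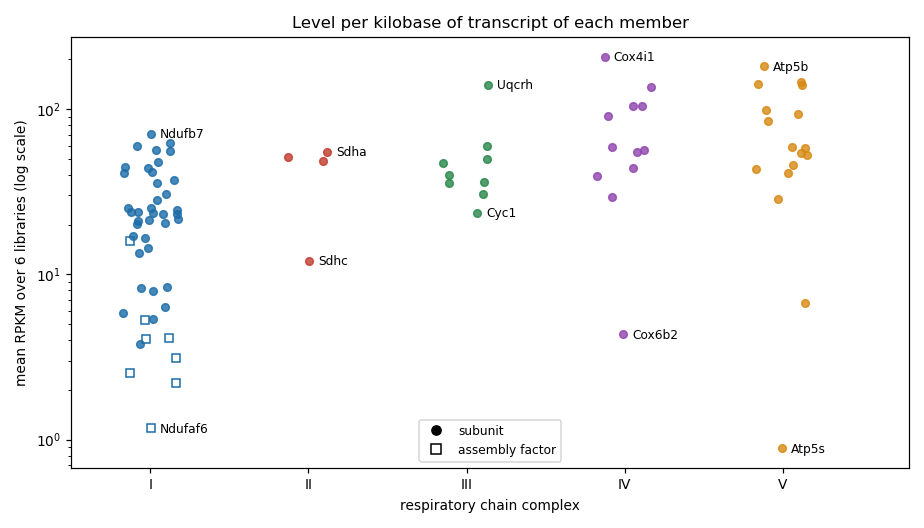
Mean level of each of the 88 members over 6 libraries (RPKM, log scale) by complex, with filled circles for subunits, open squares for complex I assembly factors, and names at the highest and lowest member of each complex. Levels run from 0.888 RPKM (Atp5s) to 207 RPKM (Cox4i1).

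The comparison asked how gene expression of splenic CD11b+ cells differs when renal denervation is added to MI. No member passed the threshold (edgeR quasi-likelihood test, Benjamini-Hochberg adjusted p under 0.05 over 14849 genes), against 1.01% of all genes tested. All 88 members passed the filter on low counts and entered this test. Fold changes are MI+RDN over MI, so that positive values are higher with denervation. At an unadjusted p under 0.05 there were 10 members with a positive and 0 with a negative fold change, or 11.4% of members in the positive direction. Among all genes tested, 9.83% met that level with a positive and 10.1% with a negative fold change, so the positive share was near the background. The 3 MI+RDN values lay above all 3 MI values in 18 members, or 20.5%, where 12.4% of all genes did so, and lay below them in 0 members, where 13.7% of all genes did so. By DESeq2's Wald test, which called 9.08% of the genes it tested, 2 members passed, Cox8a and Ndufb7, and by limma-voom, which called 0.748%, 0 members passed.

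Most members had small positive fold changes. The log2 fold change was positive in 74 of 88 members, where 51% of all genes tested were positive, and its median was 0.11, where that of all genes was 0.0080. Complex I had a median of 0.12, complex II 0.10, complex III 0.088, complex IV 0.22 and complex V 0.11. These signs are relative to a scaling (TMM) that centres most genes near 0. On library totals alone the median of all genes moved to -0.13, the members' median was -0.029 with 37 positive and 51 negative, and only complex IV kept a positive median, at 0.084. Without MI+RDN replicate 2 the members' median was 0.049 with 55 of 88 positive. The count at an unadjusted p under 0.05 dropped to 5 when MI replicate 1 was left out, and also when MI+RDN replicate 2 or MI+RDN replicate 3 was.

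The difference between the groups was about as large as the spread between libraries. The mean log2 deviation of the 88 members from their average over libraries was -0.11, -0.099 and 0.060 in MI replicates 1 to 3, and -0.061, 0.14 and 0.076 in MI+RDN replicates 1 to 3. MI replicate 3 thus lay above MI+RDN replicate 1, and the groups overlapped. The pooled SD within groups of these library means was 0.099. MI+RDN replicate 2, the highest library for the members, also had the highest sums of neutrophil markers and of precursor granule genes. The other libraries did not keep this order. MI replicate 3 had the lowest neutrophil sum (15704 CPM) and a positive member deviation. MI+RDN replicate 1 had the next highest neutrophil sum (37210 CPM) and a negative one. A link between the members and the neutrophil markers was not tested. The summed level of the members was 3795 ± 192 CPM (SD, n = 3) without denervation and 4061 ± 243 CPM (SD, n = 3) with it. The precision was enough for moderate changes: 84 of 88 intervals (95%) lay within a 2-fold change in either direction, 71 lay within a 1.5-fold change, and 78 held 0.

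**Figure D3:**
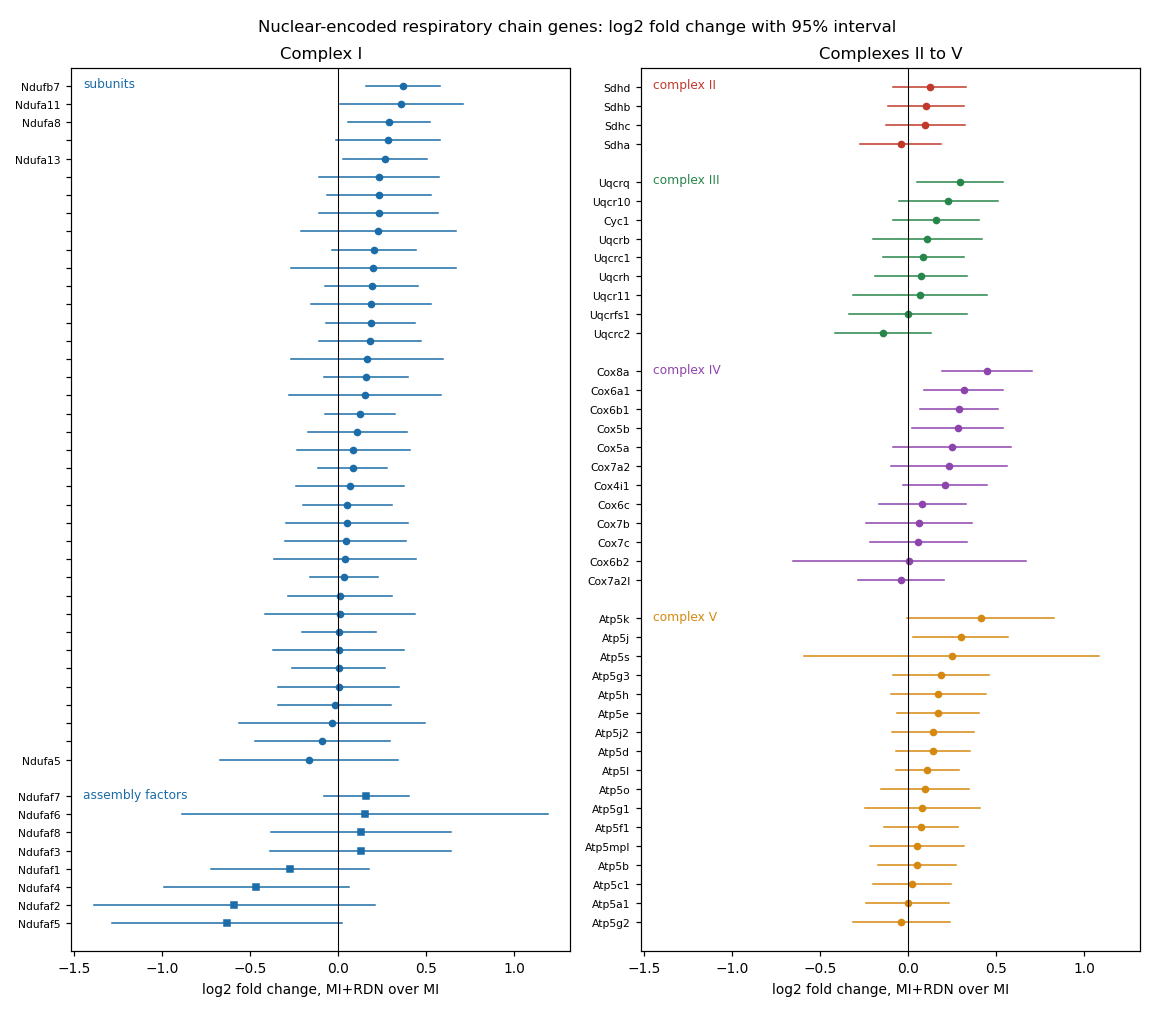
Log2 fold change (MI+RDN over MI, horizontal axis) of each of the 88 members with its 95% interval from edgeR, n = 3 libraries per group, with complex I on the left (circles subunits, squares assembly factors) and complexes II to V on the right. Complex I subunits are named where the unadjusted p is under 0.05 and at the highest and lowest value. 74 points lie to the right of 0, and 78 intervals hold 0.

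**Figure D4:**
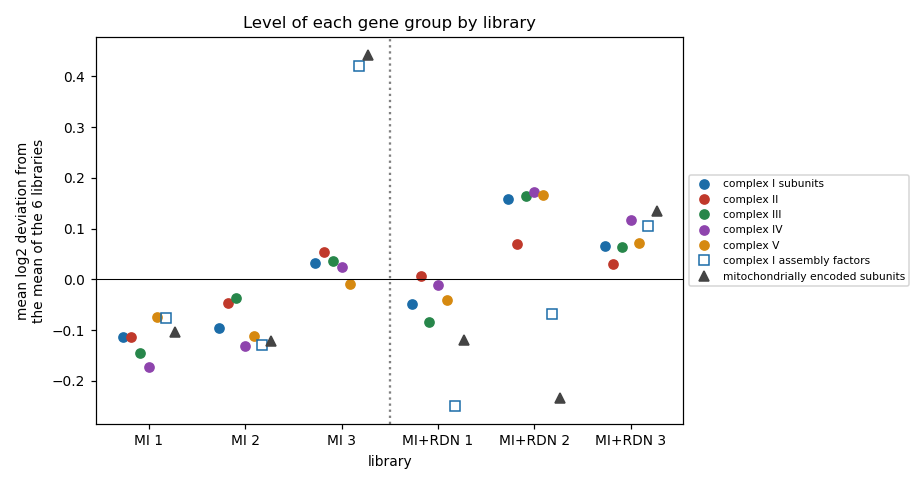
Mean log2 deviation of each gene group from its average over the 6 libraries (vertical axis) by library (horizontal axis), for subunits of each complex (filled circles), complex I assembly factors (open squares) and the mitochondrially encoded subunits (triangles). MI replicate 3 stands highest for the assembly factors (0.42) and the mitochondrially encoded subunits (0.44), and MI+RDN replicate 2 for the complex IV members (0.17).

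Complex IV, cytochrome c oxidase, had the highest median of the 5 complexes, with 11 of 12 members positive. At an unadjusted p under 0.05 there were 4 members (33.3%), all positive, where 9.83% of all genes tested were positive at that level, and 0 were called. Cox8a (ENSMUSG00000035885, chromosome 19), which encodes the smallest nuclear subunit, was at 39.1, 42.8 and 45.0 CPM in the MI libraries and at 52.3, 55.9 and 65.4 CPM in the MI+RDN libraries. Every MI+RDN library lay above every MI library. Its log2 fold change was 0.45 ± 0.11 (SE), with an edgeR adjusted p of 0.0862. DESeq2 gave it an adjusted p of 0.0192, while the other alternatives gave 0.0881 to 0.231.

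Cox6a1, the liver-type form of a subunit with a heart and muscle counterpart, was at 53.4, 56.9 and 48.4 CPM in MI and 63.4, 63.1 and 71.2 CPM in MI+RDN. The groups did not overlap, the log2 fold change was 0.32 ± 0.10 (SE), and the edgeR adjusted p was 0.135. Cox6b1, which sits at the dimer interface, and Cox5b, a zinc-binding subunit, completed the 4 at an unadjusted p under 0.05, with log2 fold changes of 0.29 and 0.28. Cox4i1 was at 141, 141 and 153 CPM in MI and 147, 179 and 176 CPM in MI+RDN, with MI replicate 3 above MI+RDN replicate 1. At the other end, Cox7a2l, which links complexes III and IV into supercomplexes, was the only negative member of the 12, at -0.04 ± 0.11 (SE). Without MI+RDN replicate 2 the complex IV median was 0.12 with 8 of 12 positive, and without MI+RDN replicate 3 it was 0.14.

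For complex I, 34 of 38 subunits were positive. The median was 0.12, with 4 subunits at an unadjusted p under 0.05, all positive, and 0 called. The share of these 4 among the 38 was near the 9.83% of all genes tested that were positive at that level. Ndufb7 (ENSMUSG00000033938, chromosome 8) was at 40.1, 39.0 and 36.2 CPM in MI and 48.8, 53.0 and 47.1 CPM in MI+RDN. The groups did not overlap, the log2 fold change was 0.37 ± 0.09 (SE), and the edgeR adjusted p was 0.0879. DESeq2 gave 0.0313, and the other alternatives gave 0.0775 to 0.253. Ndufa8, an accessory subunit on the intermembrane side, was at 36.0, 36.1 and 31.3 CPM in MI and 41.0, 40.2 and 45.1 CPM in MI+RDN, again without overlap. Its log2 fold change was 0.29 ± 0.10 (SE) and its edgeR adjusted p 0.171.

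The 7 core subunits of complex I made in the nucleus, most of which hold the flavin or iron-sulphur clusters or bind quinone, had a median of 0.12. All 7 were positive on the TMM scale and 3 of 7 on library totals, and none was at an unadjusted p under 0.05. The 31 accessory subunits ranged from Ndufb7 to Ndufa5, which lies in the arm that faces the matrix, at -0.17 ± 0.22 (SE), and had a median of 0.11. Without MI+RDN replicate 2 the median of the 38 subunits was 0.019 with 22 positive, and on library totals it was -0.021 with 18 positive. The accessory median was 0.0025 with 16 of 31 positive when MI+RDN replicate 2 was left out, 0.058 when MI replicate 1 was, and 0.16 and 0.17 when MI replicate 3 or MI+RDN replicate 1 was. For the core subunits, leaving out MI replicate 2 gave a median of 0.067, and leaving out MI+RDN replicate 2 gave 0.072.

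The complex I assembly factors were divided in sign. They help to build complex I and are not part of the finished enzyme. Of 8 factors 4 were negative and 4 positive, with a median of -0.072, none at an unadjusted p under 0.05 and 0 called. Ndufaf5 (ENSMUSG00000027384, chromosome 2), which hydroxylates an arginine of the core subunit Ndufs7, was at 5.07, 3.29 and 4.86 CPM in MI and 2.62, 2.19 and 3.74 CPM in MI+RDN. MI+RDN replicate 3 lay above MI replicate 2, so the groups overlapped. Its log2 fold change was -0.63 ± 0.28 (SE), the lowest of the 88 members, with an edgeR adjusted p of 0.265.

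Ndufaf4, a factor for the arm that carries the quinone site, was at 7.2, 8.3 and 12.4 CPM in MI and 6.35, 6.28 and 7.56 CPM in MI+RDN, with a log2 fold change of -0.47 ± 0.23 (SE) and an edgeR adjusted p of 0.300. MI replicate 3 was the highest library, and MI replicate 1 lay below MI+RDN replicate 3. Ndufaf2, a factor of late assembly, was at -0.59 ± 0.35 (SE) and Ndufaf1, a factor for the membrane arm, at -0.27 ± 0.19 (SE). Ndufaf7 had the highest value at 0.16 ± 0.10 (SE), with 24.0 to 27.4 CPM in MI and 28.1 to 31.4 CPM in MI+RDN. The median of the 8 factors was 0.024 without MI replicate 3, whose mean deviation was 0.42, and it was -0.0011 without MI+RDN replicate 1. When any other single library was left out it lay between -0.23 and -0.16. These factors were the least precisely measured group, with a median SE of 0.23 against 0.14 for the subunits, and the difference between factors and subunits was not tested.

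Complex II, which also belongs to the citric acid cycle, had 3 of 4 members positive and a median of 0.10, with none at an unadjusted p under 0.05 and 0 called. Sdha was at 148, 172 and 165 CPM in MI and 171, 151 and 149 CPM in MI+RDN. The ranges of the groups nearly coincided, and the log2 fold change was -0.04 ± 0.10 (SE). Sdhb, the iron-sulphur subunit, was at 49.3, 53.3 and 57.9 CPM in MI and 54.7, 60.5 and 57.3 CPM in MI+RDN, with a log2 fold change of 0.10 ± 0.09 (SE). The membrane anchors Sdhc and Sdhd, which bind quinone, were at 0.10 ± 0.10 and 0.12 ± 0.09 (SE). In each of the 4 genes the groups overlapped, and on library totals all 4 were negative. Leaving out MI+RDN replicate 2 lowered the median to 0.049, and leaving out MI replicate 3 raised it to 0.15.

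Complex III had 7 of 9 members positive, 1 member (11.1%) at an unadjusted p under 0.05 and 0 called. That share was near the 9.83% of all genes tested that were positive at that level. Uqcrq (ENSMUSG00000044894, chromosome 11), a small subunit near the quinone sites, was at 30.5, 33.0 and 29.0 CPM in MI and 34.8, 41.6 and 37.0 CPM in MI+RDN. The groups did not overlap, the log2 fold change was 0.29 ± 0.11 (SE), and the edgeR adjusted p was 0.181. Uqcr10, another small subunit, was at 0.23 ± 0.12 (SE) with overlapping groups. Of the subunits that carry electrons, Cyc1 was at 0.16 ± 0.11 (SE) and the Rieske protein Uqcrfs1 at -0.00035 ± 0.15 (SE). The core proteins split, with Uqcrc1 at 0.09 ± 0.10 (SE) and Uqcrc2, the lowest member of the complex, at -0.14 ± 0.12 (SE). Leaving out MI replicate 1 gave a complex III median of 0.016, leaving out MI+RDN replicate 2 gave 0.033, and on library totals it was -0.047 with 3 of 9 positive. Without MI replicate 3 or without MI+RDN replicate 1 it was 0.15 and 0.16.

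Complex V had 15 of 17 members positive, 1 member (5.88%) at an unadjusted p under 0.05 and 0 called. That share was below the 9.83% of all genes tested that were positive at that level. The F1 head and central stalk, which bind the nucleotides and turn (Atp5a1, Atp5b, Atp5c1, Atp5d and Atp5e), differed least, with a median of 0.049. Atp5b was at 362, 322 and 341 CPM in MI and 342, 376 and 342 CPM in MI+RDN. The groups overlapped and the log2 fold change was 0.05 ± 0.10 (SE). The peripheral stalk, which holds the head still (Atp5f1, Atp5h, Atp5j and Atp5o), had a median of 0.13. Atp5j (ENSMUSG00000022890, chromosome 16), coupling factor 6, was at 38.1, 37.3 and 40.8 CPM in MI and 42.7, 55.3 and 44.9 CPM in MI+RDN.

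The groups did not overlap for Atp5j, the log2 fold change was 0.30 ± 0.12 (SE), and the edgeR adjusted p was 0.211. Atp5j shares exon sequence with Gabpa on the opposite strand, the gene of the DNA-binding subunit of GABP, which was at -0.12 ± 0.10 (SE). Among the small membrane subunits, which shape the dimer of the enzyme, Atp5k (ENSMUSG00000050856, chromosome 5) had the highest fold change of the complex. It was at 7.54, 9.88 and 9.83 CPM in MI and 10.2, 14.2 and 11.9 CPM in MI+RDN. These values did not overlap either, and the log2 fold change was 0.41 ± 0.18 (SE) with an edgeR adjusted p of 0.256. Atp5s, at 0.934 to 1.87 CPM in every library, had an interval from -0.59 to 1.09 and gave no usable comparison. Without MI+RDN replicate 2 the complex V median was 0.062, without MI+RDN replicate 1 it was 0.20, and on library totals it was -0.028 with 8 of 17 positive.

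Several subunits have paralogues that replace each other in the same enzyme, and the share of each was taken per kilobase. The c ring of ATP synthase is made of 1 protein encoded by 3 genes. Atp5g2 supplied 51.1%, 52.2% and 51.9% of their summed level in the MI libraries and 46.8%, 45.9% and 51.5% in the MI+RDN libraries. Atp5g3 supplied 43.2%, 41.8% and 42.8% in MI and 47.8%, 48.2% and 42.6% in MI+RDN. MI+RDN replicates 1 and 2 thus differed from all MI libraries in both shares, and MI+RDN replicate 3 lay among them. The differences of -3.66 and 3.64 percentage points gave exact two-sided permutation p-values of 0.2 and 0.3, where the smallest p that 3 against 3 can give is 0.1, and both were 0.533 after Benjamini-Hochberg adjustment over 4 shares.

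Atp5g1 supplied 5.67% ± 0.31 of the MI level and 5.69% ± 0.28 of the MI+RDN level (SD, n = 3; exact permutation p = 0.9). This share rests on the transcript length: with the shortest annotated principal transcript of each gene it was 18.6% in MI, with Atp5g2 at 50.2% and Atp5g3 at 31.3%. The testis form Cox6b2 was at 4.41% ± 1.33 of the Cox6b pair in the MI libraries, against 3.65% ± 0.064 with denervation (SD, n = 3; exact permutation p = 0.4). Forms known from heart and muscle were near 0. Cox6a2 was at most 0.708% of the Cox6a pair and Cox7a1 at most 1.33% of its pair with Cox7a2 in any library. The lung form Cox4i2 had 2 counts in all, the hypoxia-linked Ndufa4l2 had 9, and Cox7b2, Cox8b and Cox8c had 0.

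Shorter members tended to have higher fold changes. Across the 88 members Pearson's r between log2 fold change and log2 length was -0.35 and Spearman's rho -0.35, and across the 14836 genes tested with a length they were -0.13 and -0.13. Genes are not independent replicates, and all points share the same 6 libraries, so this is a description. All 7 subunits of at most 500 bases were positive (median 0.20), as were 24 of 25 up to 700 bases (median 0.11), 15 of 17 up to 1000 bases (median 0.18) and 24 of 31 over 1000 bases (median 0.067). The medians thus did not fall steadily from class to class. Over all genes tested the same 4 classes had medians of 0.086, 0.051, 0.060 and -0.00068. The part of length or RNA quality in the members' values was not tested.

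**Figure D5:**
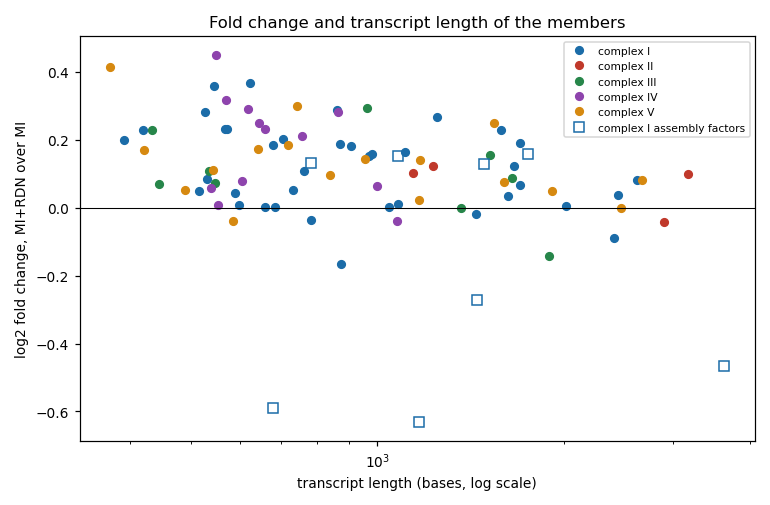
Log2 fold change (MI+RDN over MI, vertical axis) against transcript length (bases, log scale) for the 88 members, coloured by complex, with complex I assembly factors as open squares. Pearson's r is -0.35, and the 3 lowest points are the assembly factors Ndufaf5, Ndufaf2 and Ndufaf4.

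Members with and without a motif match overlapped in their fold changes. Members with the NRF1 letters had a median log2 fold change of 0.11 (n = 11) and members without them also 0.11 (n = 60). Those with the letters ranged from Ndufaf5, whose site is not printed above, at -0.63 to Atp5k at 0.41. The printed NRF1 sites stand in genes from Ndufaf4 at -0.47 to Atp5k. Members with ETS letters had a median of 0.14 (n = 18) against 0.086 (n = 53), and members with YY1 letters 0.14 (n = 10) against 0.10 (n = 61). These differences between medians were not tested.

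The mitochondrially encoded subunits, which the members join in complexes I, III, IV and V, were mostly negative on the TMM scale. Of 13 genes 12 were negative with a median of -0.13, none was at an unadjusted p under 0.05 and 0 were called. Their summed level was 20004, 19911 and 29144 CPM in MI and 20497, 19472 and 25917 CPM in MI+RDN. MI replicate 3 and MI+RDN replicate 3 stood above the other 4 libraries, so the groups overlapped. The lowest p were at mt-Nd2 (-0.41 ± 0.18, SE) and mt-Nd4l (-0.27 ± 0.16, SE), both of complex I. The difference between these genes and the members was not tested. On library totals both medians were negative, at -0.28 for these genes and -0.029 for the members. Without MI replicate 3 the median was 0.045, with 9 of 13 positive. It was -0.24 when MI replicate 1 was left out, -0.25 when MI replicate 2 was, -0.081 when MI+RDN replicate 2 was and -0.32 when MI+RDN replicate 3 was.

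Other genes that serve the chain were counted from textbook lists. Assembly factors of complexes II to V (36 tested) had a median of -0.044 with 19 negative, and other complex I assembly factors (9 tested) had -0.16 with 8 negative. When 1 library was left out the first median lay between -0.073 and -0.0019 and the second between -0.21 and -0.073. By edgeR 0 genes of either list were called. At an unadjusted p under 0.05 the first held 1 positive and 4 negative genes, and the second 0 positive and 1 negative. For comparison, 9.83% of all genes tested were positive and 10.1% negative at that level. Lrpprc, which stabilises mitochondrial mRNAs, was at 30.3, 32.8 and 35.0 CPM in MI and 23.9, 24.0 and 23.1 CPM in MI+RDN, without overlap. Its log2 fold change was -0.47 ± 0.10 (SE) and its edgeR adjusted p 0.0641. Atpaf1, a chaperone of the F1 head, was at -0.64 ± 0.17 (SE, adjusted p 0.101), also without overlap.

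Acad9, a fatty acid enzyme that doubles as a complex I assembly factor, was at 22.2, 19.8 and 23.4 CPM in MI and 16.4, 16.6 and 15.1 CPM in MI+RDN. The groups did not overlap, with a log2 fold change of -0.45 ± 0.11 (SE) and an edgeR adjusted p of 0.0961. Nubpl, which delivers iron-sulphur clusters to complex I, was at -0.62 ± 0.35 (SE).

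Regulators of mitochondrial biogenesis (16 tested) had a median of -0.078 with 7 positive and 9 negative, of which 2 and 2 were at an unadjusted p under 0.05 and 0 were called. Shares over all genes tested at that level were 9.83% positive and 10.1% negative. The transcription factor genes Nrf1, Esrra and Gabpa were at 0.21 ± 0.08, 0.18 ± 0.10 and -0.12 ± 0.10 (SE). Pprc1, a coactivator of the PGC-1 family, was at -0.45 ± 0.12 (SE, edgeR adjusted p 0.108), with 24.7 to 28.2 CPM in MI and 17.6 to 22.2 CPM in MI+RDN. Tfam, which packages mitochondrial DNA and starts its transcription, was at 24.2, 21.8 and 24.9 CPM in MI and 18.2, 19.1 and 18.4 CPM in MI+RDN. The groups did not overlap, the log2 fold change was -0.35 ± 0.10 (SE) and the edgeR adjusted p 0.129. Ppargc1b was at -0.70 ± 0.58 (SE), and Ppargc1a had too few counts to be tested.

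Genes for cytochrome c and ubiquinone synthesis (14 tested) had a median of 0.0061, with Cycs, the carrier between complexes III and IV, at -0.09 ± 0.15 (SE). The lowest p in that list were at Coq3 (-0.49 ± 0.20, SE) and Coq8a (-0.31 ± 0.16, SE). Other dehydrogenases that feed ubiquinone (8 tested) had a median of 0.21. Sqor, which passes electrons from sulphide to ubiquinone, was at 80.5, 76.4 and 65.9 CPM in MI and 102, 133 and 98.9 CPM in MI+RDN, without overlap. Its log2 fold change was 0.58 ± 0.14 (SE) and its edgeR adjusted p 0.0782. Gpd2, the glycerol phosphate dehydrogenase, was at 0.21 ± 0.12 (SE).

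Citric acid cycle genes (18 tested) had a median of -0.0030 with 9 positive and 9 negative, and the lowest p were at Suclg2 (-0.57 ± 0.17, SE) and Idh2 (-0.30 ± 0.13, SE). Carriers of ADP, ATP and phosphate (7 of 8 tested) had a median of 0.11 with 6 positive. Vdac2, an outer membrane channel, and Slc25a5, an ADP/ATP exchanger, were at 0.19 ± 0.10 and 0.16 ± 0.09 (SE). In these 4 lists 0 genes were called by edgeR. At an unadjusted p under 0.05 they held, in the order given here, 1 negative, 1 positive, 2 negative and 0 genes. That level was met by 9.83% of all genes tested in the positive and 10.1% in the negative direction.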

How the data were processed

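RNA from 6 libraries was sequenced. Libraries were strand-specific, per the labels' protocols. FastQC 0.11.2, STAR and the build GRCm39 are named in the submitters' processing notes. The authors deposited raw counts per Ensembl gene, while the counting tool, its strand setting and its handling of reads with several matches are not stated in the labels. Exons of 23 members overlap another gene, 21 on the opposite strand, and reads of processed pseudogenes may be shared with their parents.

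Counts were tested with edgeR 4.0.16 (TMM factors, filterByExpr, quasi-likelihood F test, Benjamini-Hochberg threshold 0.05, no covariate) over all 6 libraries. The common biological coefficient of variation was 20.7%. SE and 95% intervals come from this fit, and CPM use TMM-scaled library sizes. RPKM divide by the median length of the principal transcripts (GENCODE M21, GRCm38). DESeq2 1.42.0 and limma-voom 3.58.1 were alternatives. R was 4.3.3. The code was tested on simulated data. The NRF1 letters are the core of a longer form that had been searched first.

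Named genes are, per complex, the 2 with the lowest p, the extremes of fold change and level, all complex II members, the paralogue sets and, per pathway list, the 2 with the lowest p, with Cycs, Ppargc1a, Ppargc1b, Nrf1, Gabpa, Esrra, Tfam and Itgam. Others (Cox5b, Uqcrc1, Uqcrfs1, Ndufaf1 and Ndufaf2, and genes named only for a role or a motif) were chosen after their values were seen. The members and lists were chosen with earlier results of these data known.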

Additional observations from a re-analysis of the deposited data

How the results depend on the processing

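The count of members called by edgeR stayed at 0 under every alternative except DESeq2's Wald test, which called 2. Genes called over the whole table numbered 150, and 475 on library totals without scaling factors, 21 without the filter on low counts, 290 with a mean of at least 5 CPM, 1165 by DESeq2, and 0 to 67 when 1 library was left out, with 0 without MI replicate 3 (2084 at an unadjusted p under 0.05) and 0 without MI+RDN replicate 1 (2323). The labels state no pairing by replicate number. Deviations of same-numbered libraries correlated at 0.018, -0.065 and 0.064, and those of different numbers at -0.11 to 0.094. With 3 libraries a group these values cannot exclude a pairing. With the replicate block 87 genes and 0 members were called. On library totals the median log2 fold change was -0.029 for all members, -0.021 for complex I, -0.037 for complex II, -0.047 for complex III, 0.084 for complex IV and -0.028 for complex V. Leaving out 1 library gave 0.12 to 0.26 for complex IV and 0.062 to 0.20 for complex V, 0.018 to 0.16 for complex I, 0.049 to 0.15 for complex II, 0.016 to 0.16 for complex III and 0.049 to 0.16 for all members, and the cause was not tested. The complex I median was 0.055 without MI replicate 1. It was 0.066 when MI replicate 2 was dropped, and 0.061 when MI+RDN replicate 3 was. Without Ndufb4c the members' median stayed at 0.11. With 3 libraries a group, 4 members had intervals that reached past a 2-fold change, and 8 had fewer than 100 counts in at least 1 library.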
